A study of Mus musculus with 4 samples.

Results

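The 10 genes *Pdgfrb*, *Rgs5*, *Kcnj8*, *Abcc9*, *Notch3*, *Anpep*, *Vtn*, *Higd1b*, *Acta2* and *Tagln* mark mural cells, the pericytes and smooth muscle cells that wrap around blood vessels. They were described here among 55573 Ensembl genes counted in FACS-enriched cells of the embryonic mouse brain. The genes were picked by their symbols, after higher counts of mural cell markers had been seen in the same *Dnmt1* KO libraries. Their difference between the genotypes is therefore given as a description. Each symbol matched 1 Ensembl identifier in GENCODE release M21 (GRCm38).

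RNA was sequenced from tdTomato-positive cells sorted at E16 from the basal telencephalon, which the study narrows to the preoptic area (POA). WT embryos were *Hmx3-Cre/tdTomato/Dnmt1* wild type and KO embryos were *Hmx3-Cre/tdTomato/Dnmt1 loxP2* on a C57BL/6J background, so that Cre and the reporter were present in both genotypes. The *Dnmt1* deletion follows the *Hmx3* promoter that drives Cre, and the sort followed the reporter. Each genotype had 2 libraries, made from pools of 12 WT and 6 KO embryos, which the labels call biological replicates and the study calls technical duplicates, so that errors and p-values may describe technical spread only. Library totals were between 8075102 and 9995968 counts, and 3 counts corresponded to 0.293 to 0.371 CPM (counts scaled to library size with TMM factors). *Dnmt1* itself was at 384 and 445 CPM in WT and at 282 and 280 CPM in KO (log2 fold change -0.56, standard error 0.14, edgeR adjusted p = 0.0511). Its edgeR adjusted p was 1.96e-07 and 0.00283 without WT replicate 1 and 2, and 0.386 and 0.521 without KO replicate 1 and 2. It passed in DESeq2 (adjusted p = 0.00843), in limma-voom (0.0358), in edgeR with DESeq2 size factors (0.0467) and in edgeR without a filter (0.00952), and did not with library size only (0.151) or at least 10 counts in every library (0.0739). *Hmx3*, the gene whose promoter defines the sorted lineage, lay at 78.3 and 89.8 CPM in WT and at 71.5 and 93.3 CPM in KO.

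Pericytes sit in the basement membrane of capillaries, and smooth muscle cells form the contractile coat of arterioles. Endothelial cells recruit both through the growth factor PDGF-B, which binds the receptor PDGFRB on the mural cell. NOTCH3 keeps mural cells in their differentiated state, a channel made of the products of *Kcnj8* and *Abcc9* couples their membrane potential to metabolism, and actin and its binding proteins give smooth muscle its force.

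The 10 genes lie on 8 chromosomes, and *Kcnj8* and *Abcc9* are the only neighbours among them. These are both on the minus strand of chromosome 6, separated by 16.2 kb. RefSeq promoters of GRCm38.p6 were found for 7 of the 10 genes, and the 250 bases before the start site are given for 5 of them, chosen to show promoters with few and with many CG dinucleotides, the sequence that DNMT1 methylates. CG is in capitals and each sequence reads 5′ to 3′ towards the start site. The *Acta2* stretch is chr19:34255374-34255623 (minus strand), that of *Rgs5* is chr1:169655251-169655500 (plus strand), that of *Kcnj8* is chr6:142571615-142571864 (minus strand), that of *Abcc9* is chr6:142702275-142702524 (minus strand) and that of *Notch3* is chr17:32166891-32167140 (minus strand).
*Acta2*: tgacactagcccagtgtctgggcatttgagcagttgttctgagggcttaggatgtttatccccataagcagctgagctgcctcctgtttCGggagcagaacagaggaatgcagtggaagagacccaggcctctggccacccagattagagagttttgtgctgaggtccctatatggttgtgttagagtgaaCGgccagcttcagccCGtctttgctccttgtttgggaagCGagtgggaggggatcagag
*Rgs5*: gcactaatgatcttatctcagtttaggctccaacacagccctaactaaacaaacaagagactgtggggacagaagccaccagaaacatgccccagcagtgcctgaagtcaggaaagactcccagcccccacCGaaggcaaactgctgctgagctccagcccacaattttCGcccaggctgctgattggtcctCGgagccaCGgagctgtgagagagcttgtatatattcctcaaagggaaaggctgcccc
*Kcnj8*: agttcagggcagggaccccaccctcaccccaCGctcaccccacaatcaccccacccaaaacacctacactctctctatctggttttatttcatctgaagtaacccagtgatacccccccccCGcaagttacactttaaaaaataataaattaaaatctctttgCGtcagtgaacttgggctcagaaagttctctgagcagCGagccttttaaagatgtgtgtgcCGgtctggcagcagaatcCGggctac
*Abcc9*: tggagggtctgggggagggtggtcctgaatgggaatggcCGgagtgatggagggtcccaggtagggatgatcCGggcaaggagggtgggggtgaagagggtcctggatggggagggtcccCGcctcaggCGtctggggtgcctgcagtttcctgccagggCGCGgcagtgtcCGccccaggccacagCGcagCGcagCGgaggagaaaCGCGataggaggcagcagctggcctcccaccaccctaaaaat
*Notch3*: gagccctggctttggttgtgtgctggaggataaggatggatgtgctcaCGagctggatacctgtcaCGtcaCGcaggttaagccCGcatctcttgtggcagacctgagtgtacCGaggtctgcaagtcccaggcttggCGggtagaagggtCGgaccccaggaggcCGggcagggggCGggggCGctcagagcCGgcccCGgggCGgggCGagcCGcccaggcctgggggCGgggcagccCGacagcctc

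*Acta2* and *Rgs5* each held 4 CG dinucleotides in this stretch, *Kcnj8* held 6, *Vtn* 9, *Abcc9* 12, *Notch3* 17 and *Anpep* 23. The median of 27025 mouse promoters was 6. The 7 genes thus lay between the 44.5th and the 88.3rd percentile of all promoters and did not share 1 CG class. TGGGAA, the core letters of the binding site of RBPJ, the partner of the NOTCH receptors, stood in 3 of the 7 stretches (*Abcc9*, *Vtn* and *Acta2*) on either strand, against 21.5% of all promoters. A CArG box is the element bound by serum response factor. Its strict form (CC, 6 letters A or T, GG) stood in 0 of 7 stretches and in 1.40% of all promoters. Forms with 1 other letter were not counted, and the *Acta2* stretch holds ccctatatgg and ccttgtttgg, which each differ from the strict form by 1 letter. GGGCGG, the letters of a GC box, stood in 3 of 7 (*Abcc9*, *Anpep* and *Notch3*) and in 32.9% of all promoters. These matches describe letters only.

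All 10 genes passed the filter on low counts. However, 4 of them (*Anpep*, *Higd1b*, *Acta2* and *Tagln*) passed only through the KO libraries, which favoured a difference before the test. Both KO libraries lay above both WT libraries for each of the 10 genes, and this held for 28.2% of the 16832 genes tested. At an edgeR adjusted p under 0.05, 8 of the 10 genes were higher in KO and 0 lower, against 7.33% and 0.57% of all genes tested, and *Anpep* and *Tagln* were not among the 8, of which *Higd1b* and *Acta2* passed the filter only through KO. The genes were chosen on this contrast, so that nothing is read from these shares. Their median log2 fold change was 2.40, against -0.03 over all genes tested. In bulk RNA, more cells of a type and more RNA per cell cannot be told apart.

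**Figure D1:**
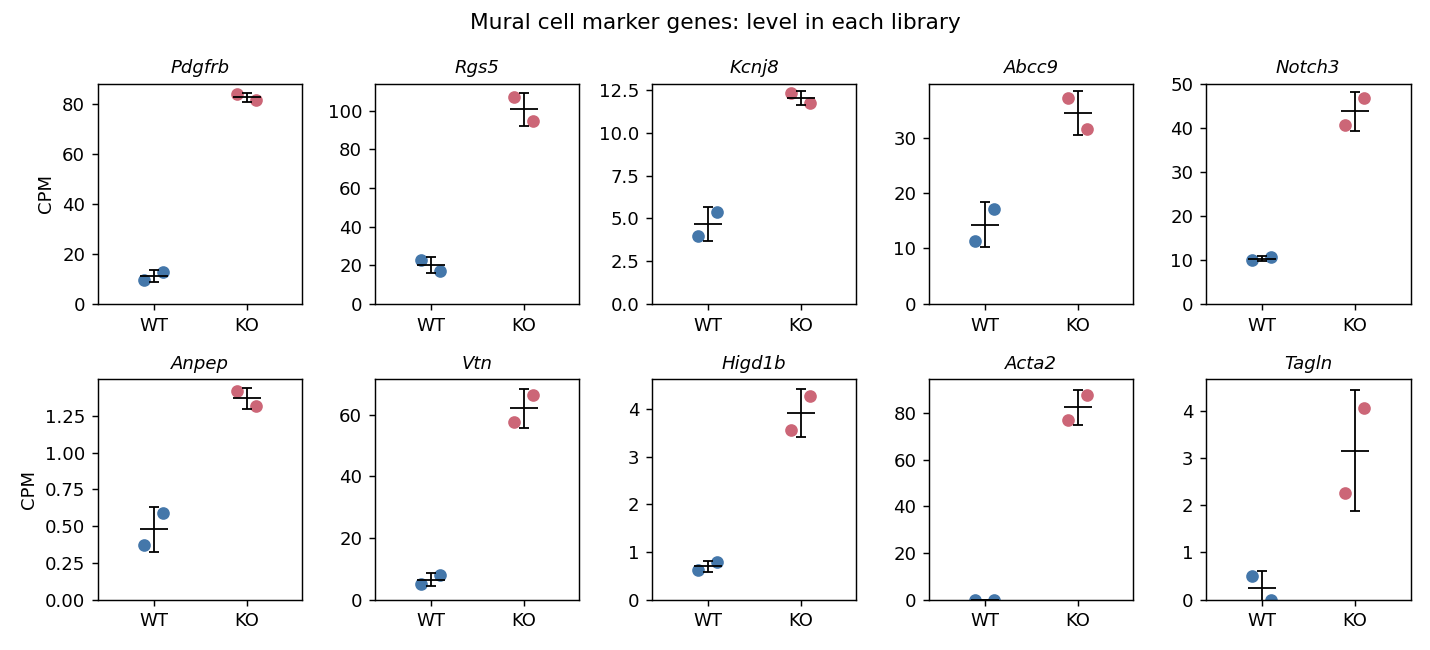
Level of the 10 mural cell marker genes in CPM, with 1 panel per gene, its own axis from 0 and 1 point per library. Black lines give the mean and the SD (n = 2). *Acta2* lies at 0 in both WT libraries and at 77.2 and 87.7 CPM in KO.

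Among the receptors, *Pdgfrb* (chromosome 18, 61045150 to 61085061) had counts of 76 and 132 in WT against 708 and 742 in KO. It lay at 11.2 ± 2.47 CPM (SD, n = 2) in WT, against 82.6 ± 1.73 CPM (SD, n = 2) in KO, which is 7.41-fold higher in KO. The gap between the genotypes was far wider than that between the libraries of either genotype. *Notch3* (chromosome 17, 32120820 to 32166852), which encodes the Notch receptor of mural cells, had 80 and 110 counts in the WT pair and 344 and 428 in the KO pair. It lay at 10.3 ± 0.600 CPM (SD, n = 2) in WT, against 43.8 ± 4.39 CPM (SD, n = 2) in KO, a 4.25-fold difference, and the WT libraries differed from each other by less than the KO libraries did. An antisense gene, *Gm17276*, covers 6.03% of the exonic bases of *Notch3*, and the strand setting of the counting is not given in the sources used here.

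*Kcnj8* (chromosome 6, 142564837 to 142571614) encodes the pore-forming subunit Kir6.1 of the vascular ATP-sensitive potassium channel. It had 32 and 55 WT counts and 104 and 107 KO counts. *Abcc9* (chromosome 6, 142587862 to 142702315), which encodes the regulatory subunit SUR2, had 92 and 176 WT counts against 314 and 288 KO counts. The means differed 2.58-fold for *Kcnj8* and 2.41-fold for *Abcc9*, with fitted log2 differences of 1.36 (standard error 0.30) and 1.26 (standard error 0.24). These were the smallest log2 differences of the 10 genes. The 2 subunit genes also kept close to each other: the ratio of *Kcnj8* to *Abcc9* counts was 0.348 and 0.313 in WT and 0.331 and 0.372 in KO. In contrast, the ratio of *Kcnj8* to *Pdgfrb* in CPM was 0.421 and 0.417 in WT and 0.147 and 0.144 in KO. *Kcnj8* and *Abcc9* thus went along with each other and not with *Pdgfrb* from WT to KO, and both ratios were taken from the same counts as the differences above.

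*Rgs5* (chromosome 1, 169655501 to 169695813) encodes a regulator that ends signalling by G proteins and is among the most used pericyte markers. It had counts of 185 and 175 in WT against 902 and 864 in KO. It lay at 20.0 ± 4.10 CPM (SD, n = 2) in WT, against 101 ± 8.51 CPM (SD, n = 2) in KO, a 5.04-fold difference. *Rgs5* was the only gene of the 10 besides *Tagln* with more CPM in WT replicate 1 than in WT replicate 2. *Vtn* (chromosome 11, 78499091 to 78502324), encoding the adhesive glycoprotein vitronectin, had 40 and 82 counts in the WT pair and 486 and 605 in the KO pair. It lay at 6.48 ± 2.17 CPM (SD, n = 2) in WT, against 62.0 ± 6.23 CPM (SD, n = 2) in KO, a 9.56-fold difference, and the higher WT library held 8.01 CPM against 57.5 CPM in the lower KO library.

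*Anpep* and *Higd1b* were measured near the limit of depth. *Anpep* (chromosome 7, 79821803 to 79861059), which encodes the membrane peptidase CD13, had 3 and 6 counts in WT and 12 counts in each KO library. *Higd1b* (chromosome 11, 102835849 to 102838040), a small gene of the HIG1 domain family, had 5 and 8 WT counts and 30 and 39 KO counts. The fitted log2 differences were 1.47 (standard error 0.66) for *Anpep* and 2.45 (standard error 0.53) for *Higd1b*. At this depth, the difference of *Anpep* is poorly determined, although the libraries of the genotypes do not overlap.

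The 2 smooth muscle genes differed widely in depth. *Acta2* (chromosome 19, 34241090 to 34255590), encoding smooth muscle alpha-actin, had 0 counts in either WT library, against 652 and 800 in the KO pair. In KO it lay at 82.5 ± 7.46 CPM (SD, n = 2), which is at least 248-fold higher than WT when 3 counts are taken for each WT library. It was thus not detectable in WT at this depth. *Tagln* (chromosome 9, 45929619 to 45936058), encoding the actin-binding protein transgelin, had 4 and 0 WT counts against 19 and 37 KO counts. Its fitted log2 difference of 3.73 (standard error 0.97) rests on WT replicate 1. It was 2.63 without WT replicate 2, and 7.88 without WT replicate 1, where the remaining WT library held 0 counts and the fitted value depends on the prior count. Antisense genes, mainly *Pcsk7*, cover up to 62.4% of the exonic bases of *Tagln*, so that its few counts are also uncertain in origin. *Pcsk7* itself had counts of 321 and 467 in WT against 366 and 402 in KO.

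Summed over the 10 genes, the level was 64.0 and 72.7 CPM in WT and 423 and 430 CPM in KO. *Acta2* made up 18.3% and 20.4% of the sum in the KO libraries and 0% in WT. Without *Acta2*, the sums in KO were 346 and 342 CPM. The WT libraries differed more from each other than the KO libraries: their biological coefficients of variation over all genes were 0.234 in WT and 0.103 in KO, and the share of mitochondrial rRNA was 8.66% in WT replicate 1 and 1.51% to 2.32% in the other libraries. Without WT replicate 1, the 10 genes had a median log2 difference of 2.43.

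Levels of different genes were compared per length, as FPKM (CPM per kilobase of exon). In WT, *Rgs5* was highest with 4.40 ± 0.901 FPKM (SD, n = 2), followed by *Vtn* with 3.19 ± 1.07 FPKM (SD, n = 2), and the ranges of these neighbours overlapped. *Pdgfrb* (2.04 FPKM), *Kcnj8* (1.83 FPKM) and *Abcc9* (1.71 FPKM) came next with ranges that overlapped from one to the next, and *Notch3* (1.28 FPKM) and *Higd1b* (0.827 FPKM) followed. *Tagln* and *Anpep* were below 0.25 FPKM in each WT library, and *Acta2* was at 0.

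In KO, the order had changed at its top. *Acta2* led with 37.6 ± 3.40 FPKM (SD, n = 2), followed by *Vtn* with 30.5 ± 3.07 FPKM (SD, n = 2), *Rgs5* with 22.2 ± 1.87 FPKM (SD, n = 2) and *Pdgfrb* with 15.1 ± 0.315 FPKM (SD, n = 2). The ranges of these neighbours did not overlap. *Notch3* (5.42 FPKM), *Kcnj8* (4.72 FPKM), *Higd1b* (4.62 FPKM) and *Abcc9* (4.11 FPKM) formed a lower tier, in which *Kcnj8* and *Higd1b* overlapped, as did *Higd1b* and *Abcc9*, and *Notch3* and *Higd1b*. *Tagln* (1.59 FPKM) and *Anpep* (0.331 FPKM) were lowest in KO.

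Further mural cell genes outside the 10 were examined next, from a list that had been written with earlier results of these libraries known. Of 18 genes, 17 were tested and 9 rose in KO (edgeR adjusted p under 0.05), against 7.33% of all genes, and 0 fell. Their median log2 fold change was 1.21. Of these 17 genes, 8 did not reach the filter in both WT libraries, and among the 9 that did, 2 rose. These were *Mcam*, encoding the adhesion molecule CD146 (207 and 355 counts in the WT pair and 573 and 655 in the KO pair), and *Heyl*, a target of Notch signalling (16 and 21 WT counts and 82 and 80 KO counts), named after their values were seen. The count of 9 fell to 5 without KO replicate 1 and to 6 without KO replicate 2, which leave a single KO library that is assumed to vary like WT, and it was 10 and 11 without a WT library.

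The 4 genes with the largest fold changes that rose, *Atp13a5*, *Itga7*, *Slc38a11* and *Art3*, all passed the filter only through the KO libraries, so that a difference was favoured before the test. *Atp13a5*, a transport ATPase gene used as a marker of brain pericytes, had 2 and 0 WT counts against 157 and 216 KO counts. Scaled for depth, the ratio of its summed counts was 194 (exact 95% interval 53.5 to 1610, counting error only). *Itga7*, encoding the integrin alpha-7 subunit that binds laminin, was at 0.677 ± 0.267 CPM (SD, n = 2) in WT, against 35.3 ± 0.376 CPM (SD, n = 2) in KO, which differed by 5.71 ± 0.32 on the log2 scale (standard error, adjusted p = 2.1e-05 in edgeR). *Slc38a11*, an amino acid transporter gene, had counts of 5 and 1 in WT against 52 and 59 in KO (edgeR adjusted p = 0.0061). *Art3*, encoding an ADP-ribosyltransferase-like protein, had 1 and 5 counts in the WT pair and 21 and 27 in the KO pair (edgeR adjusted p = 0.040), and its adjusted p was 0.157 without KO replicate 1 and 0.334 without KO replicate 2, and 0.0579 in limma-voom. In contrast, *Cspg4*, which encodes NG2 and is also a marker of oligodendrocyte precursors, had 2030 and 2688 WT counts and 2692 and 3440 KO counts (edgeR adjusted p = 0.119), and was singled out because it made up most of the list's level. The list summed to 369 and 391 CPM in WT and to 585 and 649 CPM in KO. Without *Cspg4*, the sums were 118 and 128 CPM in WT and 266 and 271 CPM in KO.

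The contractile genes of smooth muscle were examined as partners of *Acta2* and *Tagln*. Of 14 genes, 12 were tested, 7 rose and 0 fell in KO (edgeR), against 7.33% and 0.57% of all genes, and their median log2 difference was 2.55. Of the 8 that reached the filter in WT, 4 rose. Of the genes described next, *Myh11*, *Des* and *Synpo2* passed only through KO, which favoured a difference before the test, and *Myl9* passed in WT. The number that rose was between 7 and 9 when 1 library was left out. *Myh11*, encoding the myosin heavy chain of smooth muscle, had 7 and 11 WT counts against 742 and 779 KO counts. The fitted log2 difference was 6.45 with a standard error of 0.23 and an adjusted p of 4.1e-06 in edgeR. *Des*, encoding the intermediate filament protein desmin, had 1 count in each WT library and 60 and 50 counts in KO, a depth-scaled ratio of 57.4 (exact 95% interval 15.5 to 480). *Synpo2*, an actin-bundling protein gene, had counts of 2 and 5 in WT against 99 and 114 in KO (edgeR adjusted p = 0.00031). *Myl9*, encoding a regulatory myosin light chain, was at 3.16 ± 0.0924 CPM (SD, n = 2) in WT, against 49.0 ± 2.49 CPM (SD, n = 2) in KO (log2 fold change 3.95, standard error 0.21). *Tpm1*, a tropomyosin gene of many cell types that was singled out for its high level, differed by 0.35 on the log2 scale (edgeR, adjusted p = 0.178). *Srf*, encoding serum response factor, was the 1 tested gene of the list with a negative log2 fold change, with 389 and 511 WT counts against 283 and 381 KO counts (-0.38, edgeR adjusted p = 0.234). Without *Tpm1*, the list summed to 69.1 and 71.4 CPM in WT and to 284 and 281 CPM in KO.

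**Figure D2:**
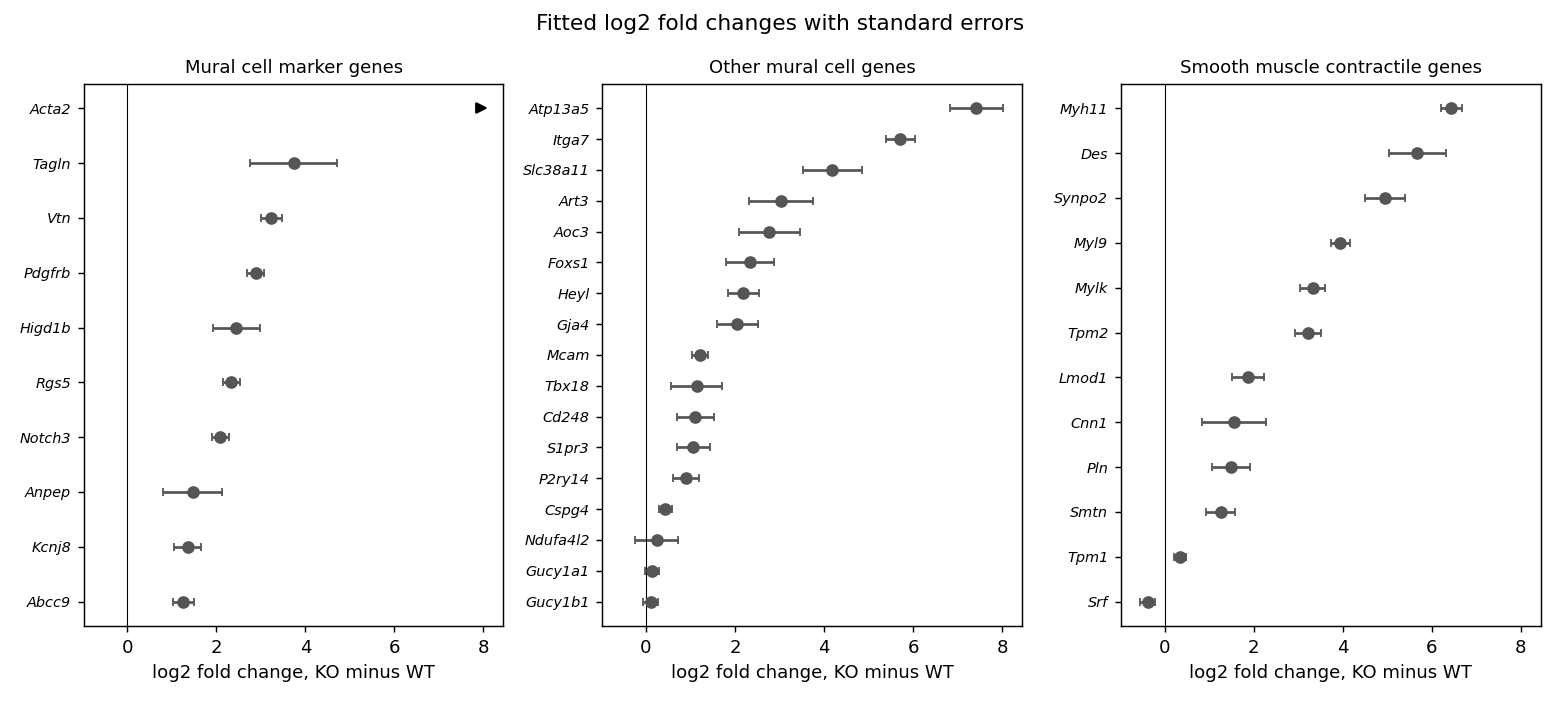
Fitted log2 fold change (KO minus WT) of the 10 mural cell marker genes, of other mural cell genes and of smooth muscle contractile genes, with bars for the standard error. The arrow for *Acta2* marks a lower bound with 0 counts in WT, and the other 9 marker genes lie between 1.26 (*Abcc9*) and 3.73 (*Tagln*).

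The genes of the PDGF ligands and of the sister receptor of PDGFRB were examined next. Of these 5 genes, 4 were tested and 0 passed in edgeR, against 7.33% higher and 0.57% lower among all genes. In edgeR 0 had an unadjusted p under 0.05, and 0 passed in DESeq2. The ligand gene *Pdgfd* was too low to be tested, with 2 and 0 WT counts against 15 and 8 KO counts, and both KO libraries lay above both WT libraries. *Pdgfb*, the ligand made by endothelial cells and added here for that role, had 14 and 27 counts in the WT pair and 40 and 17 in the KO pair (log2 fold change 0.58, edgeR adjusted p = 0.592), and the genotypes overlapped. *Pdgfra*, the sister receptor of oligodendrocyte precursors, had 5907 and 7341 WT counts and 7162 and 7522 KO counts (log2 fold change 0.21, standard error 0.13, edgeR adjusted p = 0.394). *Pdgfa*, its main ligand, differed by -0.19 on the log2 scale (edgeR, adjusted p = 0.689).

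Among 14 Notch ligands, other receptors and targets, 4 rose and 0 fell in KO (edgeR), against 7.33% and 0.57% of all genes, and the median log2 fold change was 0.52. Of the 14, 8 had a positive and 6 a negative log2 fold change, the latter including *Rbpj*, the DNA-binding partner of the receptors (-0.53, edgeR adjusted p = 0.209). *Notch2*, a receptor of many cell types, had 205 and 327 WT counts against 702 and 875 KO counts (log2 fold change 1.64, standard error 0.18, edgeR adjusted p = 0.00079). *Notch1*, the receptor of neural progenitors and endothelium, had counts of 658 and 1018 in WT against 1714 and 2106 in KO (log2 fold change 1.26, standard error 0.16, edgeR adjusted p = 0.0020). Both differences were smaller than the 2.08 (standard error 0.19) of *Notch3*, which was not tested against them because *Notch3* was chosen for its own. *Hes1*, a transcriptional target, had 49 and 56 counts in the WT pair and 120 and 177 in the KO pair (edgeR adjusted p = 0.0126, and 0.0799 without KO replicate 2). *Jag1*, a ligand, differed by 0.74 on the log2 scale (edgeR, adjusted p = 0.0473), which did not pass in DESeq2 (adjusted p = 0.0603), in limma-voom (0.0542) or without KO replicate 1 (0.407) or KO replicate 2 (0.166). The count of 4 was 2 without KO replicate 2 and 7 without WT replicate 2.

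*Kcnj11* and *Abcc8*, the relatives of *Kcnj8* and *Abcc9* that form the channel of neurons and pancreatic beta cells, were lower in CPM in both KO libraries. *Abcc8* had 118 and 220 WT counts and 73 and 59 KO counts, and lay at 18.0 ± 4.87 CPM (SD, n = 2) in WT, against 7.56 ± 1.54 CPM (SD, n = 2) in KO. It fell by 1.26 on the log2 scale (standard error 0.30, edgeR adjusted p = 0.0398), with an adjusted p of 0.185 without KO replicate 2 and of 0.0521 with at least 10 counts in every library. *Kcnj11* had 61 and 119 WT counts against 36 and 62 KO counts (log2 fold change -0.79, edgeR adjusted p = 0.241). The genotypes did not overlap for *Abcc8*, and for *Kcnj11* they overlapped in counts but not in CPM.

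The relatives of *Rgs5* were examined in the same way. Of 9 further RGS genes of the R4 family, 5 were tested and 0 passed in edgeR, against 7.33% higher and 0.57% lower among all genes. In DESeq2 0 passed, and in edgeR 1 had an unadjusted p under 0.05. That 1, named after its values were seen, was *Rgs3*, with 86 and 130 WT counts against 164 and 229 KO counts (log2 fold change 0.93, edgeR adjusted p = 0.055), and KO lay above WT without overlap. The number past the test was 1 when scaled by library size only, without a filter, with the length and GC correction, without WT replicate 1 and without WT replicate 2. The most abundant, *Rgs4*, a gene of neurons, had counts of 633 and 726 in WT against 664 and 742 in KO (log2 fold change 0.10, edgeR adjusted p = 0.719). *Rgs2* differed by -0.24 on the log2 scale (edgeR, adjusted p = 0.395). *Rgs18* and *Rgs21* had 0 counts in all libraries.

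Vitronectin, the product of *Vtn*, binds integrins that hold the alpha-V subunit. Of 9 receptor and partner genes, 6 were tested, 2 rose and 0 fell in KO (edgeR), against 7.33% and 0.57% of all genes. *Itgav*, the alpha-V subunit gene, had 489 and 470 counts in the WT pair and 1083 and 1123 in the KO pair (log2 fold change 1.24, standard error 0.17, edgeR adjusted p = 0.0032). *Itgb5*, encoding the beta-5 subunit that pairs with it, had 46 and 74 WT counts and 226 and 266 KO counts (log2 fold change 2.11, standard error 0.24, edgeR adjusted p = 0.0010). Both remained past the threshold without each library in turn.

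Marker genes of other cell types were examined because the sorted cells could hold them. For endothelial cells, on which mural cells sit, 12 of 16 genes were tested, 1 rose and 0 fell (edgeR), against 7.33% and 0.57% of all genes. The 1 was *Slco1c1*, a transporter gene that astrocytes also express, with 11 and 8 WT counts against 1044 and 1105 KO counts. It did not reach the filter in both WT libraries, and of the 6 endothelial genes that did, 0 passed the test. Of the 12 tested, 8 had a positive log2 fold change, and the median was 0.48. Of the same 12, 6 had both KO libraries above both WT libraries and 3 had both below, and over all genes tested 28.2% had both above. Without *Slco1c1*, the endothelial markers summed to 27.5 and 32.1 CPM in WT and to 31.6 and 34.4 CPM in KO. The ranges of these sums overlapped between the genotypes. *Pecam1*, an adhesion molecule gene, had counts of 30 and 14 in WT against 12 and 36 in KO, and the genotypes overlapped. *Cldn5*, a tight junction gene, lay lower in KO, with 18 and 32 WT counts against 7 and 10 KO counts. So did *Kdr*, also a VEGF receptor gene, with 46 and 71 WT counts against 27 and 35 KO counts, and *Egfl7*, with 21 and 29 against 13 and 14. *Flt1*, a VEGF receptor gene, lay higher in KO, with 23 and 34 WT counts against 53 and 65 KO counts, as did *Esam* with 29 and 53 WT counts against 59 and 68 KO counts. *Erg* was at 0 in KO (3 and 6 WT counts) and *Ly6c1* at 0 in WT (7 counts in each KO library). The genes from *Pecam1* on were named after their values were seen, and none of them that was tested passed. For fibroblasts and meninges, 4 of 10 genes were tested and 1 rose (*Foxc1*, edgeR adjusted p = 0.029, and 0.136 and 0.178 without KO replicate 1 and 2). That list summed to 33.2 and 36.6 CPM in WT and to 47.5 and 40.4 CPM in KO, without overlap, and 3 of the 4 tested genes had a positive log2 fold change. The collagen gene *Col1a1* had 32 and 25 WT counts against 72 and 69 KO counts (log2 fold change 1.34, edgeR adjusted p = 0.070), and *Col3a1* had 83 and 137 WT counts against 102 and 52 KO counts (log2 fold change -0.42, edgeR adjusted p = 0.554). *Dcn* had 7 and 19 WT counts against 2 and 9 KO counts and was not tested, and *Dpt*, *Lum* and *Aldh1a2* were at 0 in at least 1 library of each genotype.

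Against the same 7.33% higher and 0.57% lower among all genes, the glial, choroid plexus, erythroid and interneuron lists gave the following counts in edgeR. All 12 astrocyte genes rose, from sums of 377 and 362 CPM in WT to 4700 and 4470 CPM in KO, with *Gfap* at 0 counts in WT. Of these 12, 9 reached the filter in WT and 3 passed it only through KO. Of 11 oligodendrocyte genes, 8 rose, or 5 of the 8 that reached the filter in WT, and the sums were 216 and 249 CPM in WT and 730 and 726 CPM in KO. The microglia list summed to 36.6 and 45.4 CPM in WT and to 80.5 and 81.2 CPM in KO, and *Aif1* was at 2 or 3 counts in each library. The choroid plexus list lay lower in KO, with 54.6 and 72.0 CPM in WT and 10.1 and 12.2 CPM in KO, mainly through *Ttr*, which had 329 and 564 WT counts and 8 and 10 KO counts. Of its 5 tested genes, 1 fell, 3 had a negative and 2 a positive log2 fold change, the latter being *Kl* (0.20) and *Kcnj13* (0.60). Erythroid markers summed to 30.7 and 44.6 CPM in WT and to 18.8 and 19.1 CPM in KO, and 1 of the 5 tested fell (*Hbb-bs*, edgeR adjusted p = 0.018, and 0.122 without KO replicate 2). Interneuron markers summed to 4420 and 4250 CPM in WT and to 3110 and 3250 CPM in KO, and all 12 had a negative log2 fold change, while up to 2 of them had a positive one under other settings, among them scaling by library size only. The 1 past the test was *Stmn2* (edgeR adjusted p = 0.042, and 0.52 and 0.334 without KO replicate 1 and 2). It did not pass with library size only (0.124), at least 10 counts in every library (0.0625) or the length and GC correction (0.0853) either. The part of other cell types in the mural cell gene levels was not tested.

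**Figure D3:**
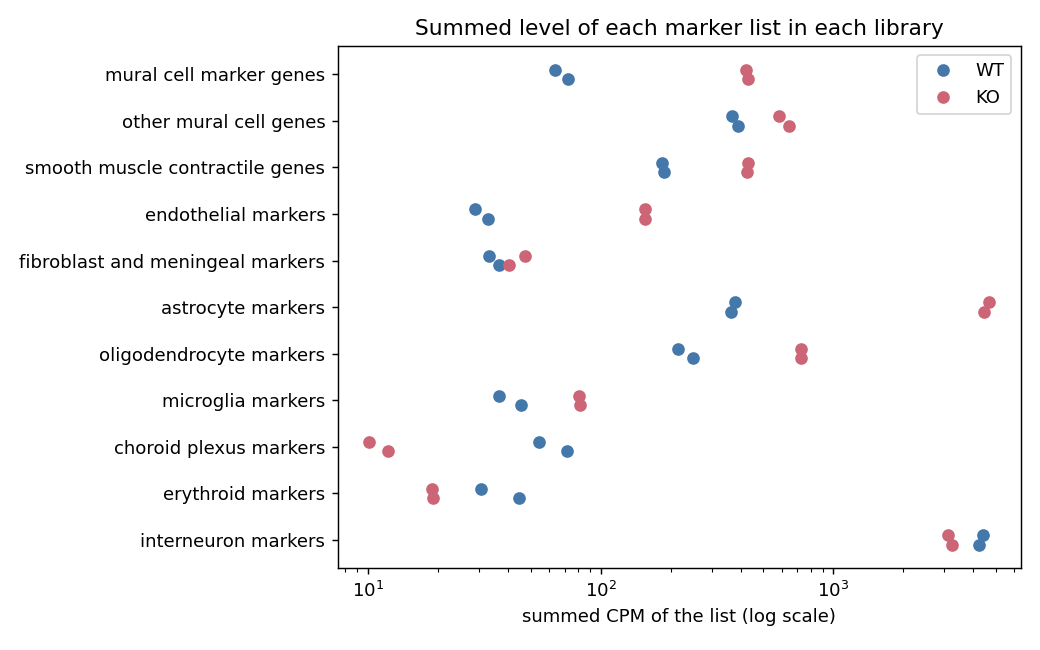
Summed CPM of each gene list (log scale) in the 2 WT and 2 KO libraries. The mural cell marker genes lie at 64.0 and 72.7 CPM in WT and at 423 and 430 CPM in KO, the fibroblast list lies between 33.2 and 47.5 CPM in all libraries, and the endothelial list includes *Slco1c1*.

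Genes next to the 10 marker genes were examined for differences shared along the chromosome. Within 100 kb of their starts lay the starts of 37 other protein-coding genes, of which 27 were tested. Of these, 4 passed in edgeR (14.8%), against 7.9% of all genes, and the median log2 fold change of the 27 was 0.12. *Gfap*, the astrocyte filament gene 65.1 kb from *Higd1b*, had 0 counts in either WT library, against 149 and 198 in the KO pair, at least 59.2-fold higher with 3 counts per WT library. As *Gfap* passed the filter only through the KO libraries, a difference was favoured before the test, and it is counted among the 4. *Csf1r*, the microglial receptor gene 55.4 kb from *Pdgfrb*, had 76 and 112 WT counts against 148 and 220 KO counts (edgeR adjusted p = 0.0474, and 0.484 without KO replicate 2, and 0.0534 in limma-voom). *Sik3*, a kinase gene at -76.8 kb from *Tagln*, had counts of 473 and 638 in WT against 1065 and 1115 in KO (log2 fold change 1.04, standard error 0.14, edgeR adjusted p = 0.0030). Its neighbour *Pafah1b2* fell by 0.62 on the log2 scale (edgeR adjusted p = 0.0468, and 0.17 and 0.589 without KO replicate 1 and 2, 0.0871 with library size only and 0.0602 with at least 10 counts in every library). No tested neighbour of *Acta2* or *Vtn* passed the test.

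**Figure D4:**
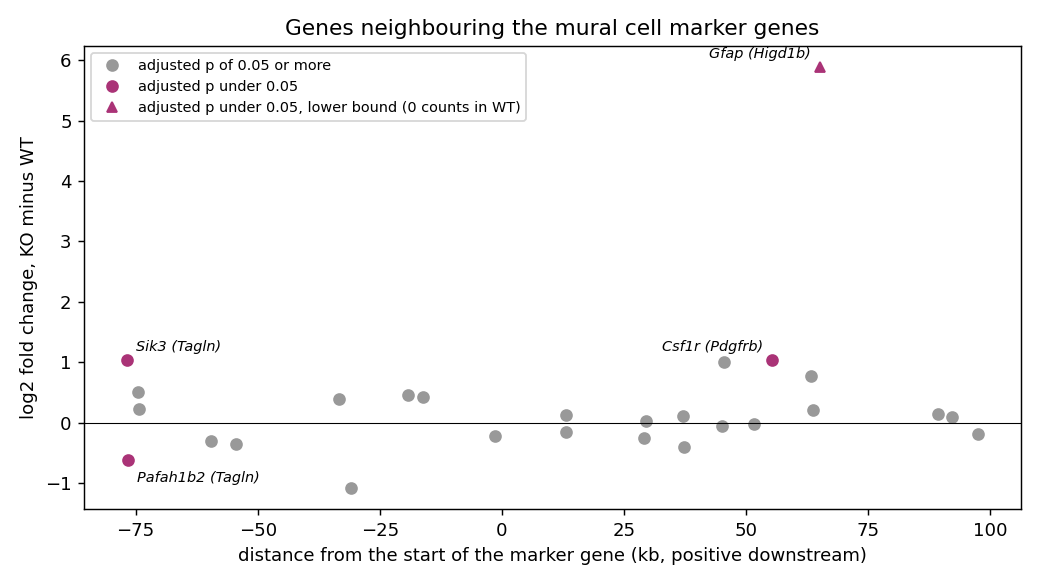
Log2 fold change (KO minus WT) of 27 protein-coding genes against the distance of their start from that of the nearby marker gene (kb, positive downstream). Most lie near 0; *Gfap* is drawn at its lower bound as a triangle, and the 4 genes past the test are named with their marker gene.

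The genes whose levels over the 4 libraries lay nearest to the mean profile of the 10 marker genes were sought among 14288 genes with at least 10 counts in every library. Nearness was the Euclidean distance of centred log2(CPM + 1) values over the 4 libraries. *Fam69c* (distance 0.0749), *Slc27a1* (0.101), *Paqr7* (0.102), *Btbd17* (0.123) and *Gpld1* (0.133) came first. *Slc27a1*, encoding a fatty acid transport protein, had 438 and 636 counts in the WT pair and 2186 and 2595 in the KO pair. *Fam69c* had 18 and 24 WT counts and 120 and 138 KO counts. The profile consists of 4 libraries in 2 genotypes, and any gene with a like difference between the genotypes comes near it.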

How the data were processed

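RNA was sequenced from FACS-enriched tdTomato-positive cells of 2 WT and 2 KO libraries. The values are whole-number read counts per gene, deposited by the authors as 1 file per library without normalisation. According to the submitters' processing notes, CASAVA 1.8.2, STAR 2.5.2a and featureCounts 1.5.0-p1 were used with mm10/GRCm38, and the strand setting is not given in the sources used here. Of 55573 Ensembl identifiers, 55480 matched GENCODE M21.

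Counts were filtered with filterByExpr, which left 16832 genes, scaled with TMM and tested with the quasi-likelihood F-test of edgeR 4.0.16 (R 4.3.3) with Benjamini-Hochberg adjustment at 0.05. KO was compared with WT without covariates. The fits were tested on simulated counts first. The marker genes were chosen on this contrast, so their fold changes are a description without p-values, and the number of them past the threshold is given only beside the share of all genes. The marker genes and all gene lists were chosen with earlier results of these data known. CPM values used TMM-scaled library sizes, and FPKM divided CPM by the summed exonic length in kb. Floors and exact intervals cover counting error only. Named genes were the marker genes, *Dnmt1*, up to 4 genes per list that passed the test with the largest log2 fold changes (the 2 most abundant where none passed), neighbours that passed the test, and the 5 nearest profiles. Further genes are named where they dominate a list or define it. The number of microglia genes past the test is not reported here. Alternatives were DESeq2 1.42.0, limma-voom (limma 3.58.1), other scalings and filters, a correction for length and GC content (mgcv 1.9.3), the replicate number as a block, removal of 392 mitochondrial and rRNA-like genes, and leaving out each library.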

Additional observations from a re-analysis of the deposited data

How the results depend on the processing

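The median log2 fold change of the 10 marker genes was 2.40 and lay between 2.25 and 2.51 in all alternatives, and every marker gene that was tested was higher in KO in each of them. Fitted differences ranged from 2.67 to 3.12 for *Pdgfrb*, from 1.98 to 2.20 for *Notch3*, from 2.13 to 2.55 for *Rgs5*, from 1.15 to 1.59 for *Kcnj8*, from 0.99 to 1.58 for *Abcc9* and from 2.94 to 3.63 for *Vtn*. The number of genes past the threshold (1329) was 2363 without a filter, 883 with at least 10 counts in every library, 2807 with the length and GC correction, and between 951 (without KO replicate 2) and 4209 (without WT replicate 2) when 1 library was left out. Without WT replicate 1 it was 3878. Of the genes past the threshold, 92.8% were higher in KO, against 75.8% without a filter, 68.0% with the length and GC correction, 66.5% without WT replicate 1 and 48.2% without WT replicate 2. The prior degrees of freedom were 6.05, and were not finite without a filter or without a WT library. The other mural cell genes past the threshold (9) numbered 2 with at least 10 counts in every library, which leaves out genes low in WT, and between 5 and 11 when 1 library was left out. The causes of the other shifts were not tested. Scaling by library size only moved the median log2 fold change of all genes from -0.03 to 0.08. Neither the median of the marker genes nor the fold change of any named gene past the threshold changed sign in these alternatives.

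The same replicate numbers in WT and KO come from different embryos and are not known to pair the libraries, and the deviations of WT replicate 1 and KO replicate 1 correlated at 0.184 across 16832 genes. With the replicate block, 2244 genes passed (72.4% higher in KO), and 3183 (64.2% higher) with the block and the length and GC correction.

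Depth limits *Anpep*, *Higd1b* and *Tagln*, which had fewer than 10 counts in each WT library, and *Acta2*, which had 0. A fit that leaves out a library assumes that the remaining one of that genotype varies like the other genotype.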
